A study of Mus musculus with 2 samples.

Results

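The mitochondrial SLC25 carrier family was followed across the nuclei of mouse brown adipose tissue (BAT). Members were taken by gene symbol, as every gene named Slc25a and a number, which gave 47 of the 32285 genes in the count matrices. Of these, 45 had at least 50 unique molecular identifiers (UMIs, each marking 1 captured RNA molecule) over both libraries, and 18497 of all genes did. The carnitine carrier Slc25a20 and the branched-chain amino acid carrier Slc25a44 were singled out as brown-fat carriers. The members closest above the limit of 50 UMIs were Slc25a2, with 30 UMIs in WT and 48 in KO, and Slc25a31, with 37 and 70. The members below it were Slc25a54, with 6 and 5 UMIs, and Slc25a41, with 5 and 3.

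SLC25 proteins are carriers built of repeated transmembrane segments, most of them in the inner mitochondrial membrane, and exchange metabolites between cytosol and matrix. They bring in fuels, nucleotides, phosphate and coenzymes, and carry out products such as citrate. In brown adipocytes the family feeds oxidation with acylcarnitines and amino acids, and the uncoupling protein UCP1, which releases the proton gradient as heat, belongs to the same protein family under another gene symbol.

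Nuclei came from the interscapular BAT of 8-week-old male mice. The WT library was made, per the study's methods, from SRSF1 flox/flox mice without the Cre gene, and the KO library from littermates of the genotype Adipoq-Cre;SRSF1 flox/flox, so both groups carried the floxed Srsf1 alleles. The adiponectin promoter drives the Cre in mature adipocytes, and is not meant to act in other cells. There was 1 library per genotype, the number of mice behind each is not given in the sources used here, and a difference between genotypes is also a difference between 2 libraries. No test or p-value was computed, and the 95% intervals given here are exact and cover counting error only. The study asked what loss of SRSF1, a splicing factor, does to brown adipocytes and their mitochondria.

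The WT library held 93102814 UMIs in 12846 barcodes and the KO library 80090208 in 11495, of which 12771 and 11378 passed the limits on nuclei, and 52 barcode sequences occurred in both. A nucleus was given a class from its summed markers. This gave 4267 WT and 1566 KO adipocyte nuclei, 223 and 1280 nuclei of adipose stem and progenitor cells (ASPCs), 1577 and 766 endothelial, 414 and 3128 immune, and 176 and 143 mural nuclei. Small numbers were Schwann, skeletal muscle or erythroid nuclei, and 47.1% of WT and 39.3% of KO nuclei were left without a class. All 8 adipocyte markers were found in the adipocyte nuclei of both libraries, with summed levels of 12039 and 12178 CPM (UMIs per 1000000 UMIs of the class). Srsf1 was at 182 CPM in WT and 64.3 CPM in KO adipocyte nuclei. The same nuclei held all 9 endothelial markers at 665 CPM in WT and 138 CPM in KO, all 8 immune markers at 125 and 313 CPM, and all 8 ASPC markers at 152 and 251 CPM, and the part of these in the values that follow was not tested. Since nuclei were pooled by class, more nuclei of a kind and more RNA per nucleus cannot be told apart within it. When nuclei were clustered, 3122 of the 4267 WT adipocyte nuclei lay in a cluster that held 1 KO nucleus, and 1396 of the 1566 KO adipocyte nuclei in one that held 7 WT nuclei. Mitochondrially encoded transcripts took a median of 1.10% of UMIs per barcode in WT and 0.0491% in KO.

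The sequences before the start sites of members that differed most are shown first, since the count data give each gene's level but not its letters. RefSeq (build GRCm38.p6) held a promoter for 36 of the 47 members, and none for Slc25a44. The 250 bases upstream of the RefSeq start are printed 5′ to 3′ on the gene's strand, with motif matches in capitals. Gene bounds and lengths given further on come from another annotation, in which the windows of Slc25a20, Slc25a42 and Slc25a25 overlap the gene itself. They are given for Slc25a20 and for 1 of the 3 starts of Slc25a25. Among members with a single promoter there, they are given for the lowest (Slc25a48, Slc25a5 and Slc25a42) and the highest (Slc25a10).
Slc25a20: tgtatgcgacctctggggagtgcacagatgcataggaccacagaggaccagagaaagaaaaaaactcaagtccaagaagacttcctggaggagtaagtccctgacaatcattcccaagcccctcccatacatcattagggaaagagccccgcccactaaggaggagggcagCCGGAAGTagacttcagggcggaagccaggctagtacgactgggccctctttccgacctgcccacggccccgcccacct
Slc25a48: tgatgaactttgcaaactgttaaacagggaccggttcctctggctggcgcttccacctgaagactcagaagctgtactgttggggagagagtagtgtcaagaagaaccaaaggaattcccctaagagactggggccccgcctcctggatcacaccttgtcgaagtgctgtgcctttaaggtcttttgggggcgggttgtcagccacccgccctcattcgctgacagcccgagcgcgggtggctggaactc
Slc25a5: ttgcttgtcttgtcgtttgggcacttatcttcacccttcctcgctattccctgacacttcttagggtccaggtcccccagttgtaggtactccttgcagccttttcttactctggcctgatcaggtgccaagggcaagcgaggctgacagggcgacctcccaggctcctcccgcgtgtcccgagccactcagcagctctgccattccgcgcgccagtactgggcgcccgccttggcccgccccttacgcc
Slc25a42: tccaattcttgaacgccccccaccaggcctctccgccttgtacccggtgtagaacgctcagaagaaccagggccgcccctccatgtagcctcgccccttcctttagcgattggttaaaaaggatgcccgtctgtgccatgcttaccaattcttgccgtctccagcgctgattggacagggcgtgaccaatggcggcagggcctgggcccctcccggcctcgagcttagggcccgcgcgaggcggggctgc
Slc25a10: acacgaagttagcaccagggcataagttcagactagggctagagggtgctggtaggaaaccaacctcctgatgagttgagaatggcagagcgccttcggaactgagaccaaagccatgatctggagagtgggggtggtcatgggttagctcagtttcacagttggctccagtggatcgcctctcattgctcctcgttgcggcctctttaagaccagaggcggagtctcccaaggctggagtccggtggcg
Slc25a25: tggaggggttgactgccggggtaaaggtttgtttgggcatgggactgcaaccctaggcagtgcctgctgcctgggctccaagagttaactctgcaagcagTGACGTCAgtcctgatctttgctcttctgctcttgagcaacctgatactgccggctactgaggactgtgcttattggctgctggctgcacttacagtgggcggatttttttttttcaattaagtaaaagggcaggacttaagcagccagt

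These windows lie at chr9:108661886-108662135 (plus strand) for Slc25a20, chr13:56438105-56438354 (plus) for Slc25a48, chrX:36795347-36795596 (plus) for Slc25a5, chr8:70212282-70212531 (minus) for Slc25a42, chr11:120491587-120491836 (plus) for Slc25a10 and chr2:32424067-32424316 (minus) for Slc25a25. Both strands were searched for 4 short motifs known from mitochondrial or cAMP-responsive genes. AAGGTCA, bound by estrogen-related receptors, stood in 4.08% of 32851 promoters and in those of 1 of the 36 members, Slc25a34. GCATGCGC, the core of the NRF1 site, stood in 2.26% of promoters and in those of Slc25a31 and Slc25a54. CCGGAAGT, bound by ETS factors, stood in 2.88% and among the members in that of Slc25a20, where the capitals mark it. TGACGTCA, the cAMP response element, stood in 1.55% and in those of Slc25a25, where the capitals mark it, and Slc25a36. The start of Slc25a25 was printed because it holds this match, and matches of letters do not show that a factor binds.

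In adipocyte nuclei the family split in both directions. Of the 43 members with at least 50 UMIs there, 8 were at least 2-fold lower in KO, beside 18.3% of all genes, and 7 were at least 2-fold higher, beside 17.4% of all genes. These shares of the members, 18.6% and 16.3%, lay near those of all genes. Their median log2 ratio of KO to WT was -0.06, against 0.02 over 15044 genes. The summed level of the family was 3096 CPM in WT and 2203 CPM in KO, a log2 ratio of -0.49 (-0.51 to -0.47). The 4 members with the most UMIs in WT adipocyte nuclei (Slc25a51, Slc25a20, Slc25a42 and Slc25a17) all had log2 ratios below 0, beside 48.8% of all genes. These 4 were picked by their WT level, which also enters the ratio. Over all kept nuclei of each library, whose makeup of classes differed, 10 of 45 members were at least 2-fold lower, beside 18.1% of genes, and 11 higher, beside 22.7%.

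**Figure D1:**
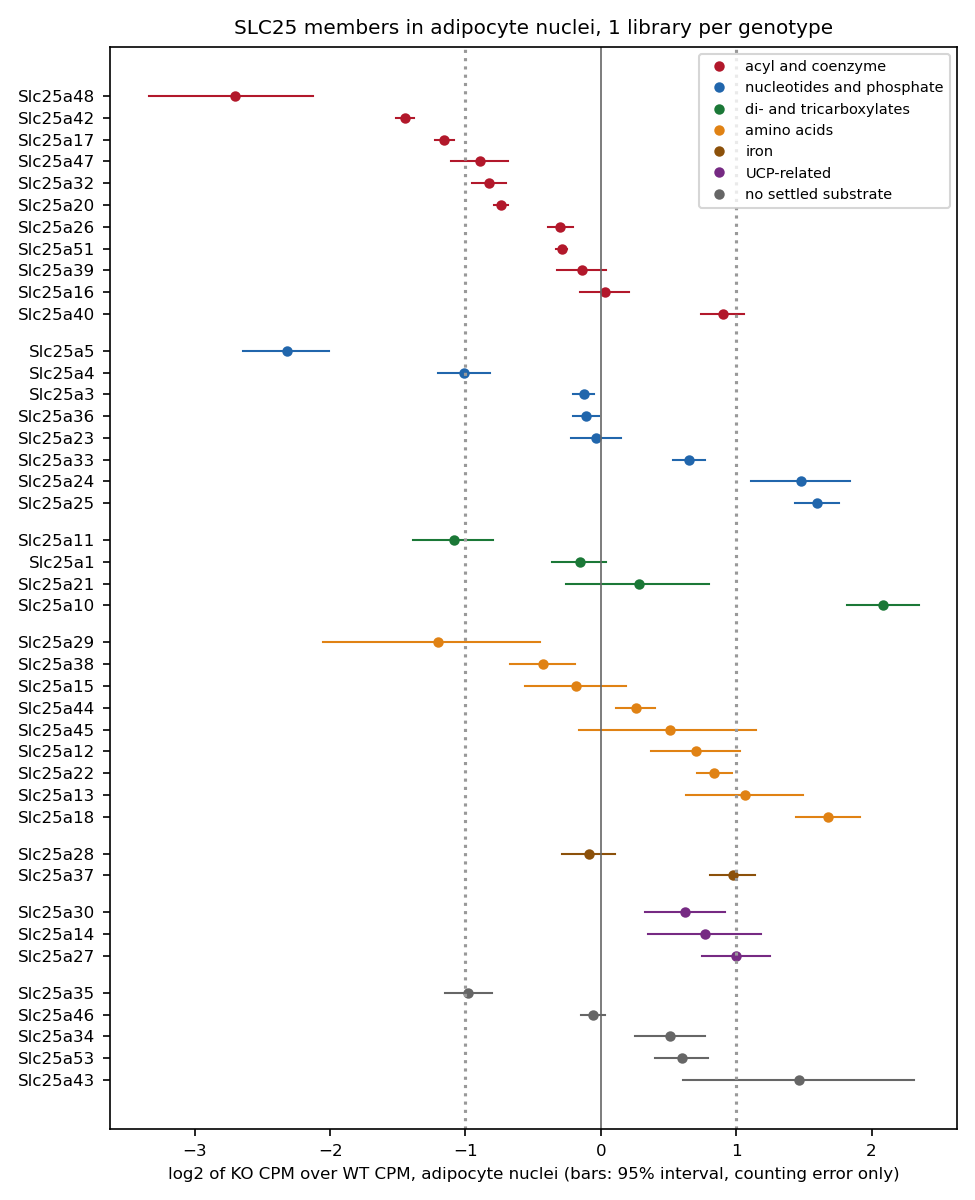
Log2 ratio of KO CPM over WT CPM in adipocyte nuclei (x axis) for 42 SLC25 members with at least 50 UMIs (y axis), grouped and coloured by substrate, with exact 95% intervals for counting error and dotted lines at 2-fold. Slc25a48 and Slc25a5 lie farthest to the left at -2.70 and -2.32, and Slc25a10 farthest to the right at 2.08.

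Carriers of acyl groups, coenzymes and related small molecules such as choline and glutathione had a median log2 ratio of -0.78, with 4 of 12 at least 2-fold lower, beside 18.3% of all genes, and 0 higher, beside 17.4%. Slc25a20 (ENSMUSG00000032602, chromosome 9 of GRCm38 from 108662088 to 108684641, plus strand) swaps acylcarnitines for carnitine and so admits long-chain fatty acids to the matrix. It had 21411 UMIs or 499.8 CPM in WT adipocyte nuclei and 3817 UMIs or 299.9 CPM in KO. This was 1.67-fold lower, a log2 ratio of -0.74 (-0.79 to -0.69), short of 2-fold. Slc25a20 was detected in 87.7% of the WT adipocyte nuclei, whose median depth was 7205 UMIs, and in 66.2% of those of KO, whose median depth was 6317. With every nucleus drawn down to 1000 UMIs, these shares became 37.1% (35.7 to 38.6) and 24.5% (22.3 to 26.7). In endothelial nuclei, where free RNA can add UMIs, the thinned shares were 8.43% in WT and 5.35% in KO, at median depths of 2368 and 2200.5 UMIs.

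Of 4 enzymes that work beside Slc25a20, Cpt1b, Cpt2 and Crat were lower in KO adipocyte nuclei, as Slc25a20 was, and Cpt1a was higher. Cpt1b, the muscle and brown-fat form of the outer-membrane enzyme that makes acylcarnitines, was at 377 CPM in WT and 208 CPM in KO adipocyte nuclei, a log2 ratio of -0.86 (-0.92 to -0.80). Cpt1a, its liver form, was at 8.89 and 41.6 CPM, a ratio of 2.22 (2.03 to 2.42). Cpt2, which regenerates acyl-CoA in the matrix, was at 74.8 and 56.3 CPM, and Crat, which makes acetylcarnitine, at 192 and 132 CPM. Of these 4 enzymes, Cpt1a alone was past 2-fold, beside 17.4% of all genes at least 2-fold higher and 18.3% lower.

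The lowest ratio of the family was that of Slc25a48, a choline carrier, with 547 UMIs or 12.8 CPM in WT and 25 UMIs or 1.96 CPM in KO. Its log2 ratio was -2.70 (-3.34 to -2.12), with under 50 UMIs in KO. Slc25a42, a coenzyme A carrier, had 18854 UMIs or 440 CPM in WT and 2058 UMIs or 162 CPM in KO, a log2 ratio of -1.44 (-1.51 to -1.38). The peroxisomal carrier Slc25a17, which moves coenzyme A and other nucleotides, had 13770 UMIs or 321 CPM in WT and 1836 UMIs or 144 CPM in KO, a log2 ratio of -1.16 (-1.23 to -1.09). These 3 carriers remained at least 2-fold lower under each of the 13 alternative settings tried for them.

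Other coenzyme carriers were lower by less. Slc25a47, known from liver, had 1375 UMIs in WT and 220 in KO adipocyte nuclei, a log2 ratio of -0.89 (-1.10 to -0.69), and Slc25a32, a folate and FAD carrier, 3711 and 623 UMIs, a ratio of -0.82 (-0.95 to -0.70). Slc25a32 was at 49.0 CPM in KO adipocyte and at 86.8 CPM in KO endothelial nuclei, so no value was left for it when the endothelial level was subtracted. Slc25a51, the NAD carrier, had 21802 and 5298 UMIs, 509 and 416 CPM, a log2 ratio of -0.29 (-0.33 to -0.25). Slc25a26, which brings in S-adenosylmethionine, had a ratio of -0.30 (-0.39 to -0.21), and Slc25a16, linked to coenzyme A, one of 0.03 (-0.16 to 0.21). Of the glutathione carriers, Slc25a39 was at 28.3 and 25.6 CPM (log2 ratio -0.14, -0.32 to 0.04) and its relative Slc25a40 at 20.6 and 38.4 CPM (0.90, 0.74 to 1.06), and these intervals do not overlap.

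Amino acid carriers had a median log2 ratio of 0.51, with 2 of 9 at least 2-fold higher, beside 17.4% of all genes, and 1 lower, beside 18.3%, counts that lie near those shares. Slc25a44 (ENSMUSG00000050144, chromosome 3 of GRCm38 from 88410498 to 88425139, minus strand) lets brown adipocytes take leucine, isoleucine and valine into mitochondria. It had 1580 UMIs or 36.9 CPM in WT adipocyte nuclei and 561 UMIs or 44.1 CPM in KO, a log2 ratio of 0.26 (0.12 to 0.40). When nuclei were thinned at random to 1000 UMIs, the ratio was -0.08, a value near 0 for which no interval was computed. Slc25a44 was detected in 26.8% of the WT and 25.03% of the KO adipocyte nuclei. After thinning the shares were 3.47% (2.94 to 4.06) and 4.21% (3.27 to 5.33), the higher share in KO, and these intervals overlap. Thinned shares in endothelial nuclei were 1.33% and 1.04%. With the endothelial level subtracted, the ratio was 0.71, so the size of the Slc25a44 difference depended on the setting. Its sign after thinning is not settled by these values.

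Among 13 enzymes of branched-chain amino acid oxidation, the median log2 ratio was 0.06. Of these, 1 was at least 2-fold higher, beside 17.4% of all genes, and 0 lower, beside 18.3%. The one was Bcat2, the mitochondrial transaminase that starts the pathway, at 13.6 CPM in WT and 110 CPM in KO, a log2 ratio of 3.01. The other 12 lay between -0.55 for Ppm1k, the phosphatase that activates the branched-chain ketoacid dehydrogenase, and 0.81 for Hibch, an enzyme of valine breakdown.

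The glutamate carriers were both higher. Slc25a18 had 310 UMIs or 7.24 CPM in WT adipocyte nuclei and 295 UMIs or 23.2 CPM in KO, a log2 ratio of 1.68 (1.44 to 1.91). Slc25a22 had 1373 and 730 UMIs, 32.1 and 57.4 CPM, a ratio of 0.84 (0.71 to 0.97). Slc25a18 overlaps Atp6v1e1 on the opposite strand, a gene with many more UMIs. The aspartate-glutamate carriers of the malate-aspartate shuttle, which moves cytosolic reducing power into mitochondria, were at low levels in adipocyte nuclei. Slc25a12 was at 5.56 and 9.04 CPM, a log2 ratio of 0.70 (0.37 to 1.03), and Slc25a13 at 2.78 and 5.81 CPM, one of 1.07 from 119 and 74 UMIs, and the intervals of the pair overlap. Both had higher levels in endothelial nuclei, where Slc25a12 was at 52.1 and 50.8 CPM and Slc25a13 at 14.5 and 19.2 CPM. Of the basic amino acid carriers, Slc25a29 had 124 and 16 UMIs, a log2 ratio of -1.20 (-2.05 to -0.45), and the ornithine carrier Slc25a15 294 and 77 UMIs, one of -0.18 (-0.56 to 0.18). Slc25a38, which brings in glycine for haem synthesis, had a ratio of -0.43 (-0.67 to -0.19), and Slc25a45 one of 0.51 (-0.16 to 1.14).

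Carriers of nucleotides and phosphate went in both directions. Of 8, 2 were at least 2-fold lower, beside 18.3% of all genes, and 2 higher, beside 17.4%. The adenine nucleotide translocases, which exchange matrix ATP for cytosolic ADP, were lower. Slc25a5 (ANT2) had 1496 UMIs or 34.9 CPM in WT adipocyte nuclei and 89 UMIs or 6.99 CPM in KO, 4.99-fold lower, a log2 ratio of -2.32 (-2.65 to -2.01). Slc25a4 (ANT1), the form of heart and muscle, had 1699 UMIs or 39.7 CPM and 251 UMIs or 19.7 CPM, a log2 ratio of -1.01 (-1.20 to -0.82), just past 2-fold. The intervals of the pair do not overlap. Both were also lower in endothelial nuclei, at 29.5 and 5.92 CPM for Slc25a5 (-2.32) and 40.9 and 14.3 CPM for Slc25a4 (-1.52). In ASPC nuclei the log2 ratio of Slc25a4 was -1.47. Slc25a5 has a processed pseudogene in the annotation, so its counts are uncertain. Slc25a3, the phosphate carrier that supplies the ATP synthase, was at 147 and 135 CPM, a log2 ratio of -0.13 (-0.20 to -0.05).

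The ATP-magnesium/phosphate carriers, which adjust the matrix adenine nucleotide pool and sense calcium, differed among themselves. Slc25a25 had 675 UMIs or 15.8 CPM in WT adipocyte nuclei and 607 UMIs or 47.7 CPM in KO, a log2 ratio of 1.60 (1.44 to 1.76). Slc25a24 had 139 UMIs or 3.24 CPM and 115 UMIs or 9.04 CPM, 2.78-fold higher in KO. Slc25a23, another of these relatives, was at 24.98 and 24.4 CPM, a log2 ratio of -0.04 (-0.22 to 0.15), and its interval overlaps neither of the others. Slc25a25 was higher in KO in endothelial nuclei too, at 69.6 and 152 CPM, and in immune nuclei, at 38.6 and 75.0 CPM. Of the 7 members at least 2-fold higher in KO adipocyte nuclei, Slc25a10 had a lower CPM in WT endothelial than in WT adipocyte nuclei. Slc25a13, Slc25a18, Slc25a24, Slc25a25, Slc25a27 and Slc25a43 had a higher one. The share of all genes with a higher one was not computed. Picking members by a high ratio of KO to WT also favours a low level in WT adipocyte nuclei. Slc25a13 (59.0 CPM in WT and 79.4 in KO), Slc25a24 (50.6 and 41.8) and Slc25a43 (25.1 and 21.5) were highest in immune nuclei of both libraries. Slc25a10, Slc25a18, Slc25a25 and Slc25a27 were not highest in immune nuclei of both libraries. In WT alone, Slc25a10 was highest in immune nuclei, at 7.83 CPM from 15 UMIs, then in mural nuclei at 6.47 CPM, against 4.995 CPM in adipocyte nuclei. Summed immune markers in adipocyte nuclei were at 125 CPM in WT and 313 CPM in KO, and endothelial markers at 665 and 138 CPM. The part of RNA from other nuclei in the ratios of these 7 members was not tested. The pyrimidine nucleotide carrier Slc25a33 was at 43.5 and 68.3 CPM, a ratio of 0.65 (0.53 to 0.77), and its relative Slc25a36 at 97.5 and 90.3 CPM, one of -0.11 (-0.21 to -0.02).

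Of the 4 carriers of di- and tricarboxylates, 1 was at least 2-fold higher, beside 17.4% of all genes, and 1 lower, beside 18.3%. Slc25a10, which exchanges malate or succinate for phosphate and is abundant in white fat, had the highest ratio among the 43 members, with 214 UMIs or 4.995 CPM in WT adipocyte nuclei and 269 UMIs or 21.1 CPM in KO. It was 4.23-fold higher, a log2 ratio of 2.08 (1.82 to 2.35). Slc25a11, the malate/2-oxoglutarate exchanger, had 787 UMIs or 18.4 CPM and 110 UMIs or 8.64 CPM, a log2 ratio of -1.09 (-1.39 to -0.80), and it fell short of 2-fold in 3 of 13 alternative settings. Slc25a1, which exports citrate for fatty acid synthesis, was at 22.9 and 20.6 CPM (-0.16, -0.36 to 0.04), and the 2-oxoadipate carrier Slc25a21 at 2.78 and 3.38 CPM (0.28, -0.26 to 0.80). Of the malate-aspartate shuttle enzymes, Got1 was at 8.10 and 41.6 CPM and Got2 at 2.78 and 7.86 CPM, both at least 2-fold higher in KO, while Mdh1 was at 119 and 64.4 CPM and Mdh2 at 92.3 and 49.5 CPM.

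The iron carriers, the relatives of the uncoupling proteins and the carriers with no settled substrate went in both directions. The mitoferrins, which import iron, differed, with Slc25a37 at 18.3 and 36.0 CPM (log2 ratio 0.97, 0.80 to 1.14) and Slc25a28 at 23.2 and 21.8 CPM (-0.09, -0.29 to 0.10). Among the 3 members related in sequence to the uncoupling proteins, Slc25a27 had 360 UMIs or 8.40 CPM in WT and 214 UMIs or 16.8 CPM in KO, a log2 ratio of 1.00 (0.75 to 1.25) at the 2-fold limit. Slc25a14 and Slc25a30 had ratios of 0.77 and 0.62. Of the carriers with no settled substrate, Slc25a35 had 2069 UMIs or 48.3 CPM and 312 UMIs or 24.5 CPM, a log2 ratio of -0.98 (-1.15 to -0.81). Slc25a34 was at 9.73 and 13.9 CPM and Slc25a53 at 15.8 and 23.9 CPM. Slc25a43 had 28 and 23 UMIs, a ratio of 1.47 (0.61 to 2.32), and Slc25a46, an outer-membrane protein of mitochondrial dynamics, 4835 and 1380 UMIs, one of -0.06 (-0.15 to 0.03).

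Of 5 proteins of the family that carry other symbols, 1 was at least 2-fold lower, beside 18.3% of all genes, and 0 higher, beside 17.4%. Ucp1 was at 1729 CPM in WT and 67.7 CPM in KO adipocyte nuclei, a log2 ratio of -4.68, while Ucp3 was at 142 and 143 CPM and Ucp2 at 6.89 and 9.98 CPM. Mtch1 and Mtch2, outer-membrane relatives, had log2 ratios of -0.37 and -0.41. No Slc25a member tested had a ratio as low as that of Ucp1.

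Carriers reach the inner membrane through the TOM complex and the small TIM chaperones, which hand them to TIM22. Of 13 genes of this path, 4 were at least 2-fold lower in KO adipocyte nuclei, beside 18.3% of all genes, and 0 higher, beside 17.4%, with a median log2 ratio of -0.65. The 4 were small chaperones or their relatives, with Timm8b at 15.2 and 3.77 CPM, Timm10b at 26.9 and 7.07 CPM, Timm13 at 19.9 and 6.68 CPM and Timm9 at 175 and 75.7 CPM. The insertase subunits Timm22, Timm29 and Agk had log2 ratios of 0.13, 0.20 and 0.19. Of 22 other transporters and channels of mitochondria, 2 were at least 2-fold lower, beside 18.3% of all genes, and 3 higher, beside 17.4%. Their median log2 ratio was -0.06. The pyruvate carrier subunits Mpc1 and Mpc2 were at 528 and 515 CPM and at 344 and 211 CPM. The sodium-calcium exchanger Slc8b1 was at 22.5 and 197 CPM, the serine carrier Sfxn1 at 62.4 and 295 CPM, and Mcub, which limits the calcium uniporter, at 2.47 and 8.72 CPM, while Smdt1, a regulator of that uniporter, was at 26.9 and 8.25 CPM and the ABC transporter Abcb8 at 83.1 and 31.1 CPM.

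Levels by class were then compared within each library. A member was taken as biased to a class where its CPM was at least 2-fold that in each of the other 4 classes. It also needed at least 50 UMIs in that highest class, and the same rule was used for all genes. WT adipocyte nuclei held 42839132 UMIs, WT ASPC nuclei 1181913 and WT mural nuclei 618555. The limit was thus met at a lower CPM in WT adipocyte nuclei, and bias to the shallower classes could be missed. Of 33 members with enough UMIs in WT, 12 were biased to adipocyte nuclei, beside 10.4% of genes, 3 to immune nuclei, beside 8.97%, and 1 to ASPC nuclei, beside 3.59%. Of 39 in KO, again 12 were biased to adipocyte nuclei, beside 11.3%, 3 to immune nuclei, beside 12.2%, and 1 to ASPC nuclei, beside 5.49%. Adipocyte bias was thus found in 36.4% of the WT and 30.8% of the KO members. In immune nuclei the shares of the members were 9.09% and 7.69%, near or under those of all genes. The adipocyte-biased members shared by both libraries were 9, among them Slc25a17, Slc25a20, Slc25a22, Slc25a34, Slc25a35, Slc25a42, Slc25a44 and Slc25a51. Slc25a20 was 4.61-fold higher in WT adipocyte than in WT mural nuclei, which came next, and 5.50-fold higher in KO adipocyte than in KO immune nuclei. For Slc25a44 the steps were 2.39-fold over endothelial nuclei in WT and 4.53-fold over immune nuclei in KO. Slc25a23, Slc25a26 and Slc25a48 were adipocyte-biased in WT alone and Slc25a10, Slc25a18 and Slc25a39 in KO alone, by these limits and with no test of the difference.

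Other classes had carriers of their own. Slc25a13 was highest in immune nuclei, at 59.0 CPM in WT and 79.4 CPM in KO, and was at 2.78 and 5.81 CPM in adipocyte nuclei. The mitoferrin Slc25a37 was at 89.8 and 83.1 CPM in immune nuclei, next to 27.9 CPM in WT ASPC and 36.0 CPM in KO adipocyte nuclei. Slc25a21 was highest in ASPC nuclei, at 44.8 CPM in WT and 48.6 CPM in KO, and at 2.78 and 3.38 CPM in adipocyte nuclei. These 3 biases stood in both libraries. Slc25a45 led in immune nuclei in WT (28.2 CPM) and Slc25a43 in KO (21.5 CPM), where its WT level was 25.1 CPM from 48 UMIs, short of the 50 asked for.

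**Figure D2:**
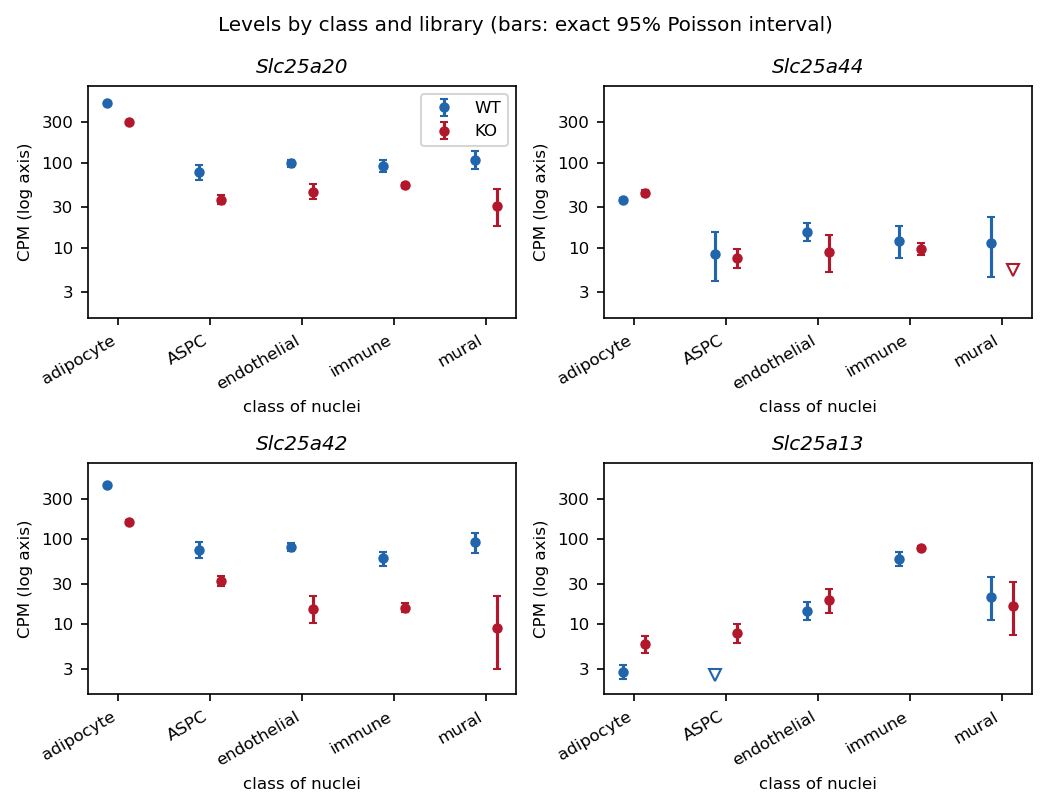
CPM (log axis) of 4 members in the 5 main classes of nuclei (x axis) in WT (blue) and KO (red), with exact 95% Poisson intervals and open triangles at the level of 3 counts where a library had 0 UMIs. Slc25a20, Slc25a44 and Slc25a42 are highest in adipocyte nuclei of both libraries, and Slc25a13 in immune nuclei, at 59.0 and 79.4 CPM.

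Outside adipocytes, the cells that Adipoq-Cre targets, members at least 2-fold lower in KO outnumbered those at least 2-fold higher, while the log2 ratio of Srsf1 was -0.58 in endothelial, -0.49 in immune, -0.46 in mural and -0.42 in ASPC nuclei. In ASPC nuclei 7 of 33 members were at least 2-fold lower, beside 10.5% of genes, and 1 higher, beside 4.67%. In endothelial nuclei the counts were 11 of 36, beside 12.3%, and 1, beside 2.78%. In immune nuclei they were 7 of 39, beside 10.7%, and 0, beside 6.27%, and in mural nuclei 3 of 9, beside 8.97%, and 0, beside 5.44%. The member counted as higher in ASPC nuclei was Slc25a13, from 59 KO UMIs against none in WT (at least 3.09-fold, taking 3 counts as the WT limit), and in endothelial nuclei it was Slc25a25.

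**Figure D3:**
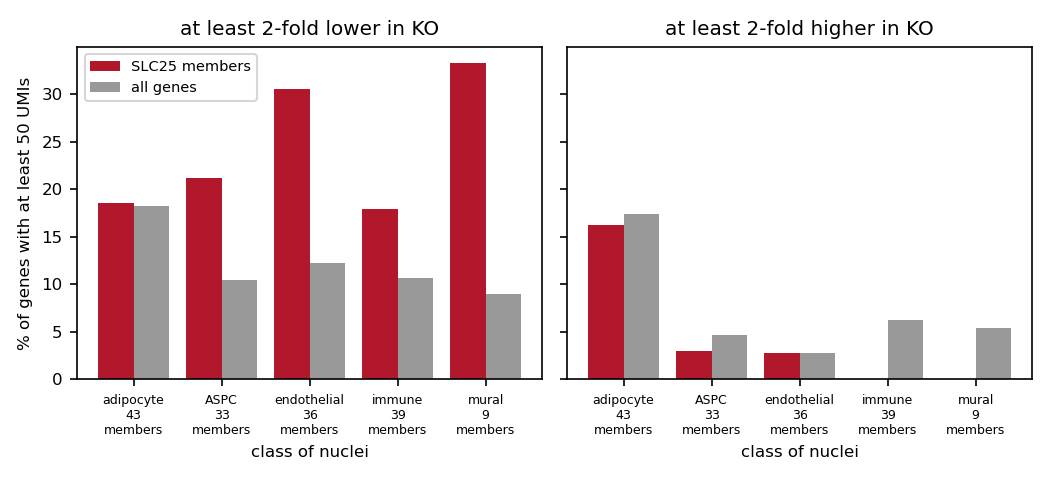
Percent of SLC25 members (red) and of all genes (grey) with at least 50 UMIs that were at least 2-fold lower (left) or higher (right) in the KO library, for 5 classes of nuclei (x axis, with the number of members). In adipocyte nuclei both shares lie close together, at 18.6% and 18.3% for lower, and in endothelial nuclei they are 30.6% and 12.3%.

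Several of the members that were lower elsewhere were adipocyte-biased, while others had no class bias in either library. Of these others, Slc25a5, Slc25a4 and Slc25a11 had log2 ratios of -2.32, -1.52 and -1.35 in endothelial nuclei. Among the adipocyte-biased members, the values of Slc25a42 and Slc25a20 follow. Slc25a42 was at 80.5 CPM in WT and 15.3 CPM in KO endothelial nuclei, a log2 ratio of -2.40, and at 59.5 and 15.7 CPM in immune nuclei, one of -1.92. Slc25a20 was at 98.7 and 45.9 CPM in endothelial nuclei (-1.10) and at 91.9 and 54.6 CPM in immune nuclei (-0.75). Beside these, Ucp1, made by brown adipocytes, was at 620 CPM in WT and 16.3 CPM in KO endothelial nuclei, and the 8 adipocyte markers summed to 3427 and 1981 CPM there. The part of free adipocyte RNA in the ratios of other classes was not tested. With the endothelial CPM of the same library subtracted, the adipocyte ratios of Slc25a20, Slc25a42 and Slc25a17 were -0.66, -1.30 and -1.18.

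**Figure D4:**
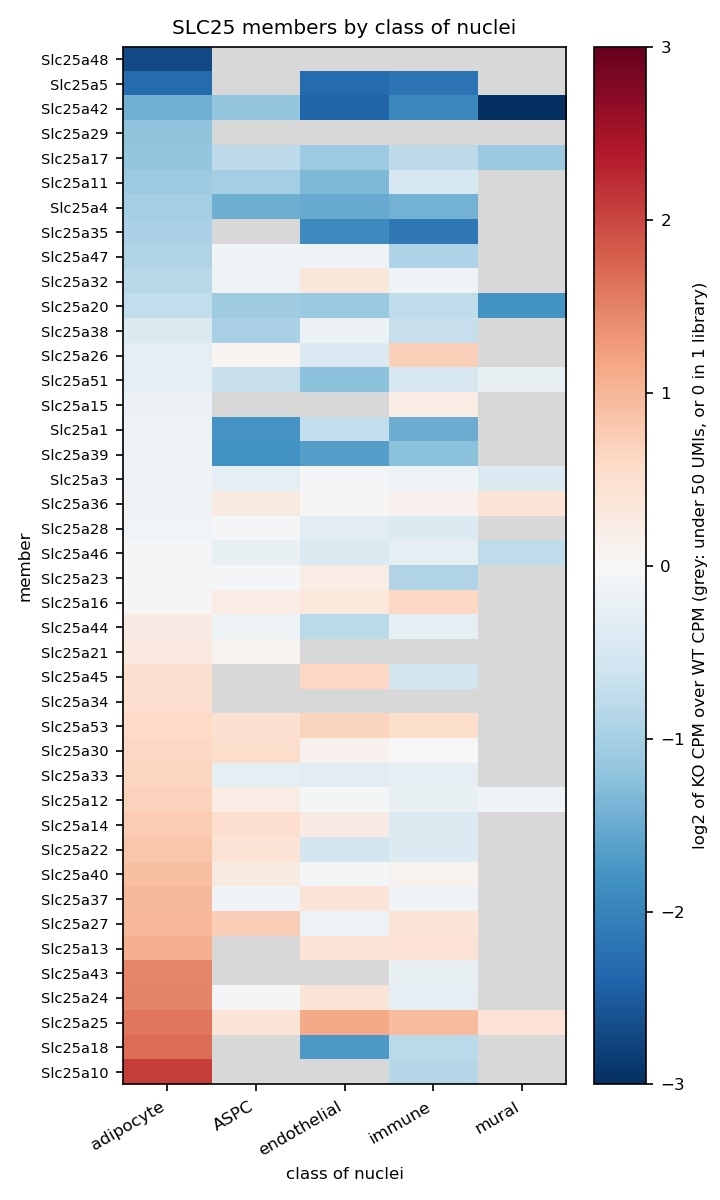
Log2 ratio of KO CPM over WT CPM (colour, blue lower and red higher in KO) for 42 members tested in adipocyte nuclei (rows, in the order of their adipocyte ratio) in 5 classes of nuclei (columns), with grey for under 50 UMIs or for 0 UMIs in 1 library. Slc25a42 is blue in all 5 classes, while Slc25a10 is red in adipocyte (2.08) and blue in immune nuclei (-0.86).

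The length of a member's gene moved with its ratio. Among members shorter than 10 kb, the median log2 ratio was -0.14 in adipocyte (11 members), -1.24 in ASPC (6), -1.35 in endothelial (9) and -1.04 in immune nuclei (10). Among longer members the medians were -0.0036, -0.06, -0.10 and -0.28. All genes differed in the same direction, with medians of -0.34 for shorter and 0.02 for longer genes in immune nuclei, and -0.41 and 0.14 in adipocyte nuclei. Spearman's rho between ratio and gene length across members was 0.35 in adipocyte, 0.56 in ASPC, 0.54 in endothelial and 0.66 in immune nuclei, where members share libraries and depth and are not replicates. Slc25a39 (4962 bases) was at 15.7 and 6.69 CPM in immune nuclei and at 23.7 and 6.77 CPM in ASPC nuclei, and Slc25a1 (2997 bases) at 15.1 and 5.36 CPM in immune nuclei. With ratios centred on genes of like length, Slc25a5 was at -1.78, Slc25a4 at -0.57 and Slc25a11 at -0.55 in adipocyte nuclei, and Slc25a42 at -1.58.

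**Figure D5:**
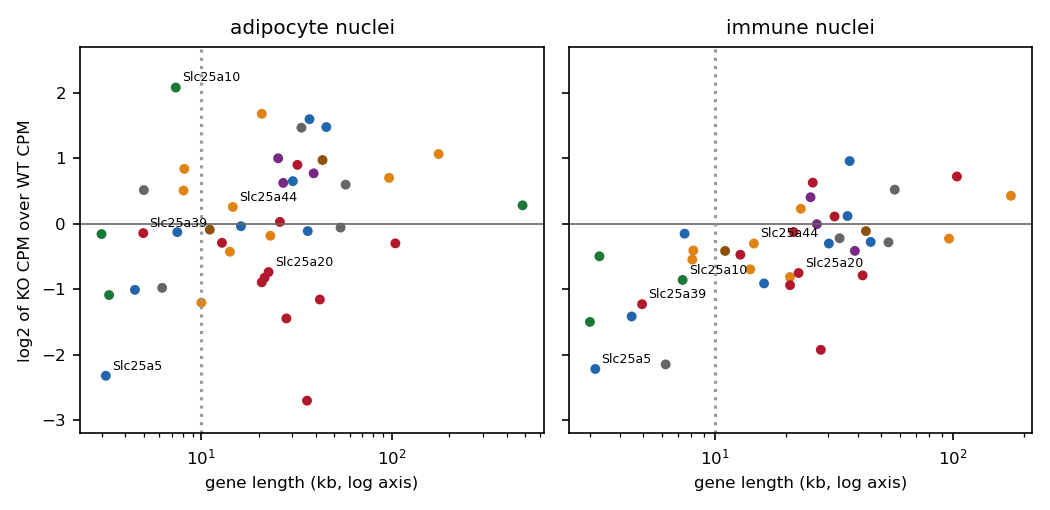
Log2 ratio of KO CPM over WT CPM (y axis) against gene length in kb (x axis, log scale) for members in adipocyte (left) and immune nuclei (right), coloured by substrate as in the plot of adipocyte ratios, with a dotted line at 10 kb. Over all members tested, those under 10 kb in immune nuclei have a median of -1.04 and the longer ones of -0.28, and in adipocyte nuclei -0.14 and -0.0036.

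Adipocyte nuclei were also divided by the summed UMIs of Slc7a10, Lep, Npr3 and Nnat, known from white adipocytes, at 20 per 10000 UMIs. This set apart 90 of 4267 WT and 239 of 1566 KO nuclei, with 33 and 132 nuclei between 15 and 25, so the group is a range and not a type. Their medians for adipocyte markers were 136 in WT and 130 in KO per 10000 UMIs, against 119 and 116 in the other adipocyte nuclei. For Schwann markers the medians were 2.10 and 1.07, against 0 and 0, for ASPC markers 0.839 and 1.05, against 0 and 1.29, and for endothelial markers 1.31 and 0, against 2.86 and 0. The part of these markers in the values was not tested. In WT, 11 of 42 members were at least 2-fold lower in these nuclei than in the other adipocyte nuclei, beside 13.2% of genes, and 2 were higher, beside 12.6%. In KO the counts were 4 of 38, beside 5.79%, and 0, beside 3.13%. Some of the WT counts rest on few UMIs. Of those lower, Slc25a13, Slc25a15, Slc25a27, Slc25a34 and Slc25a48 had at most 5 UMIs in the WT nuclei set apart. Of those higher, Slc25a45 had 3. The intervals of Slc25a13, Slc25a15 and Slc25a45 hold 0.

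Some acyl and coenzyme carriers, among them Slc25a17, Slc25a20, Slc25a32 and Slc25a51, were lower in the nuclei with a high white-like sum in both libraries. So were members of other substrate groups in these nuclei. Among them were Slc25a3, with log2 ratios of -0.61 in WT and -0.56 in KO, and Slc25a4, with -0.81 and -0.64. Slc25a20 was at 192 CPM there and 507 CPM in the others in WT, and at 131 and 333 CPM in KO, log2 ratios of -1.40 and -1.35. Slc25a51 was at 229 and 515 CPM in WT and at 207 and 457 CPM in KO, log2 ratios of -1.17 and -1.14. Slc25a42 differed between the libraries, at 180 and 446 CPM in WT and at 155 and 163 CPM in KO, and this was not tested. Other coenzyme carriers were not lower in both. Slc25a16 had log2 ratios of 0.41 in WT and 0.14 in KO and Slc25a47 of 0.34 and -0.05, with intervals that hold 0. The KO interval of Slc25a26 (-0.43 to 0.04) held 0 too. The dicarboxylate carrier Slc25a10 was higher in these nuclei, at 50.2 CPM against 4.01 CPM in WT, a log2 ratio of 3.65 (3.14 to 4.12), and at 35.9 against 18.2 CPM in KO, one of 0.98 (0.57 to 1.37). Slc25a25 was higher there in both libraries too, with log2 ratios of 0.98 in WT and 0.60 in KO. The intervals of the Slc25a44 ratios hold 0, with 34.9 and 36.9 CPM in WT and at 37.9 and 45.3 CPM in KO.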

How the data were processed

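Single nuclei of BAT were profiled with 10x 3′ v3.1 chemistry, 1 library per genotype. As deposited, the values are UMI counts per gene and barcode, which the authors made with Cell Ranger (version 5.0.0 in the submitters' processing notes, which also name Seurat 3.1.1) on GRCm38, and whether intronic reads were counted is not given in the sources used here. Bulk data of the study were not used here.

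Barcodes were kept with at least 200 genes, at most 10% mitochondrial UMIs, and log UMI and gene numbers within 3 scaled median absolute deviations of the median. Each marker sum was placed between its level in other nuclei of the library (0) and in nuclei of the class (1), and a nucleus with at least 1000 UMIs was called where the first class reached 0.5, with at least 2 markers detected, and the second stayed under 0.25. These limits were settled after the data had been seen. The first sum lay within 0.1 of its limit in 2059 WT and 1961 KO nuclei. The second-class rule set aside 1939 and 1203 nuclei as mixed or doublets, and removal of the top 10% of Scrublet scores was an alternative.

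UMIs were summed per class and library, scaled to CPM and compared as log2 ratios of KO to WT with exact conditional binomial intervals (95%), where at least 50 UMIs were present over both libraries. Levels have Poisson intervals and shares of nuclei exact Clopper-Pearson intervals. A value of 0 was given a limit of 3 counts. Nuclei are not replicates and no test was run. The ratio script was checked on simulated data. Python 3.11.15, scanpy 1.11.5 and scipy 1.17.1 were used. The members and gene lists were chosen with earlier results of these data known. Named in full were Slc25a20, Slc25a44 and, among members with at least 200 UMIs in adipocyte nuclei, the 10 lowest and 5 highest ratios, with paralogs, class-biased members and the listed partner genes beside them. Of the members counted, 1 is not reported here by itself.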

Additional observations from a re-analysis of the deposited data

Results flagged for a closer look

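Slc25a18, a glutamate carrier, stood at a log2 ratio (KO over WT) of 1.68 in adipocyte nuclei (310 WT and 295 KO UMIs) and of -1.73 in endothelial nuclei (44 and 6 UMIs), so the 2 classes lay on opposite sides of 0. The difference was not tested, since each genotype had 1 library.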

How the results depend on the processing

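No paired analysis was possible because each genotype had 1 library. Under 13 planned settings and 3 chosen after seeing the data, none of the values past 2-fold changed sign, and of 261 recomputed values 208 stayed within counting error or 1.5 times a count and 53 moved further. The number of members at least 2-fold higher in KO adipocyte nuclei was 7 of 43 (17.4% of all genes), but 4 of 26 with the endothelial CPM subtracted (32.1%), 4 of 33 with nuclei thinned to 1000 UMIs (14.4%) and 15 of 43 at a 1.5-fold limit (27.7%). With the endothelial CPM subtracted, the 4 were Slc25a10, Slc25a21, Slc25a22 and Slc25a39, of which only Slc25a10 was among the 7. The rest of the 7 (Slc25a13, Slc25a18, Slc25a24, Slc25a25, Slc25a27 and Slc25a43) had no value in that setting. The number lower was 8, with a range of 6 (ratios centred on genes of like length) to 12 (1.5-fold limit). The median log2 ratio was -0.28 with the endothelial CPM subtracted (all genes 0.16) and 0.17 when centred on genes of like length (all genes 0). For Slc25a20 the log2 ratio was -0.95 with Leiden clusters, -0.67 with stricter class calls, -0.80 with both calls required, -0.60 without nuclei of high white-like sum, -0.61 as a mean over nuclei, -0.66 with the endothelial CPM subtracted, -0.59 after thinning and -0.84 when centred by length. For Slc25a44 it was 0.71 with the endothelial CPM subtracted and -0.082 after thinning, and the other 16 named members kept 1 sign. Slc25a4, Slc25a11, Slc25a27, Slc25a35 and Slc25a47 crossed the 2-fold limit in at least 1 setting. The causes were not tested. Of the 5 classes compared, mural nuclei had the fewest members with 50 UMIs, 9.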

Other observations

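Classes with few nuclei gave values with no comparison. In skeletal muscle nuclei, 14 in WT and 11 in KO, the aspartate-glutamate carrier Slc25a12 had 9 and 16 UMIs. In erythroid nuclei, 38 and 3, Slc25a20 had 19 and 0 UMIs and Slc25a42 had 15 and 0. In Schwann nuclei, 45 and 7, Slc25a51 had 30 and 1 UMIs and Slc25a17 had 25 and 3.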
